A study of Mus musculus with 3 samples.

Results

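The 10 genes described here, of the Notch pathway and of secretory cell fate, were examined in single-cell RNA-seq (scRNA-seq) of mouse intestinal epithelium. They were the receptors Notch1 and Notch2, the ligands Dll1 and Dll4, the Notch target Hes1, and the secretory regulators Atoh1, Spdef, Gfi1, Neurog3 and Foxa3. They were taken from a list of names and matched to the gene symbols of the count tables, where each of the 10 matched 1 of 51912 genes. The 3 libraries compared were 2 from Arid3a cKO mice (genotype VillinCreERT2, Arid3a fl/fl) and 1 from a WT control (genotype VillinCreERT2). Both groups carried the tamoxifen-inducible Cre driven by the Villin promoter, which is active throughout the intestinal epithelium. Both also received tamoxifen at 8 to 10 weeks of age and were harvested 1 month after the first injection. By label, the floxed Arid3a gene was the difference between them. Crypt cells were sorted as living, Epcam-positive, CD45-negative and CD31-negative, and transcripts were counted as unique molecular identifiers (UMIs), which tag single captured mRNA molecules near their 3′ end.

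In the crypt, a Delta-like ligand on the surface of a cell activates Notch receptors on its neighbour, and the released receptor domain switches on Hes1, a transcriptional repressor. Hes1 represses Atoh1, the transcription factor required for all secretory lineages, so a crypt progenitor with active Notch takes the absorptive fate and a cell that escapes Notch expresses Atoh1 and Delta-like ligands itself. Downstream of Atoh1, Spdef and Foxa3 act in goblet cells, Gfi1 directs goblet and Paneth cells away from the endocrine fate, and Neurog3 starts the enteroendocrine programme.

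Cells with at least 1000 detected genes and at most 15% mitochondrial UMIs were kept, which left 2134 cells of Arid3a cKO 1, 1550 of Arid3a cKO 2 and 1910 of WT, with 58169310 to 70922480 UMIs a library and medians of 29895 to 35764 UMIs a cell. Values of the 3 libraries are given in this order below. The kept cells were 31.2%, 22.5% and 16.2% of the barcodes, and 66.4%, 75.6% and 79.2% of the barcodes exceeded the mitochondrial limit. Between 11 and 18 barcodes were shared by any pair of libraries. Arid3a itself had 42, 52 and 161 UMIs, or 0.592, 0.894 and 2.57 counts per 1000000 UMIs of the library or class (CPM), and was lowest in both cKO libraries. Clusters were made without the 10 genes and were named from marker genes as ISC-like (intestinal stem cell, 276 to 440 cells a library), transit-amplifying (TA)-like (207 to 250), enterocyte-like (4 clusters, 659 to 864), goblet-like (115 to 132), Paneth-like (17 to 34), enteroendocrine-like (42 to 86) and tuft-like (28 to 49). The 2 remaining clusters, numbers 2 and 11, met no marker rule and stay unnamed. Markers of cells that the sort should remove were low, but 11 immune markers summed to 5.80, 19.2 and 34.98 CPM, all 11 being detected in each library, and 6 stromal markers to 0.0423, 4.19 and 0.128 CPM. Of 6 endothelial markers (0.479 to 0.606 CPM), Cdh5 and Cldn5 were at 0 in each library.

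All 10 genes were detected in every library, from 256 UMIs in all for Gfi1 to 23331 for Hes1. Positions are those of GRCm38 (GENCODE M21), matched by gene identifier, and all 10 genes are protein-coding. Notch1 (ENSMUSG00000026923) lies on chromosome 2 from 26457903 to 26516663 on the minus strand, and Notch2 (ENSMUSG00000027878) on chromosome 3 from 98013527 to 98150361 on the plus strand. Notch1 overlaps Mir6996 and Notch2 overlaps Gm42819 and Gm42820 on their own strand, so counts from the shared stretches may be affected. Dll1 (ENSMUSG00000014773) lies on chromosome 17 from 15367354 to 15376872 on the minus strand, and Dll4 (ENSMUSG00000027314) on chromosome 2 from 119325784 to 119335962 on the plus strand. Hes1 (ENSMUSG00000022528) lies on chromosome 16 from 30064384 to 30067796 and Atoh1 (ENSMUSG00000073043) on chromosome 6 from 64729125 to 64731245, both on the plus strand. Spdef (ENSMUSG00000024215) lies on chromosome 17 from 27714352 to 27728955, Gfi1 (ENSMUSG00000029275) on chromosome 5 from 107716657 to 107726036 and Foxa3 (ENSMUSG00000040891) on chromosome 7 from 19013284 to 19023538, all on the minus strand. Neurog3 (ENSMUSG00000044312) lies on chromosome 10 from 62133090 to 62134763 on the plus strand.

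Promoter sequence was looked up for the genes that rose together in Atoh1-positive ISC- and TA-like cells (described further on). RefSeq (GRCm38.p6) gave 11 start sites for 9 of the 10 genes. Hes1 was the gene without one, so no Hes1 window was searched. The 250 bases before the start are printed 5′ to 3′ on the strand of the gene. Capitals mark CAGCTG, an E-box of the kind that Atoh1 and other basic helix-loop-helix factors bind, and TGGGAA, the core of the site bound by RBPJ, the DNA-binding partner of the Notch receptors.
Dll1, chr17:15376933-15377182: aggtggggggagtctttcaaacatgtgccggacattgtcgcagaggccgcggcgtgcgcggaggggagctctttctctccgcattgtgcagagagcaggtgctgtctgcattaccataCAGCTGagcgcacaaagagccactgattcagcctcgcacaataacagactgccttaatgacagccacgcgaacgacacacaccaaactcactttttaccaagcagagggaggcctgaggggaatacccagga
Dll4, chr2:119325534-119325783: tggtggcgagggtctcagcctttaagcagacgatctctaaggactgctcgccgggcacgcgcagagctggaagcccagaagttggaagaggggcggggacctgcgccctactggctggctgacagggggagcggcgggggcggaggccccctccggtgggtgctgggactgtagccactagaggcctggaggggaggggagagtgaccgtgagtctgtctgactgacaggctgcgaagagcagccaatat
Spdef, chr17:27728952-27729201: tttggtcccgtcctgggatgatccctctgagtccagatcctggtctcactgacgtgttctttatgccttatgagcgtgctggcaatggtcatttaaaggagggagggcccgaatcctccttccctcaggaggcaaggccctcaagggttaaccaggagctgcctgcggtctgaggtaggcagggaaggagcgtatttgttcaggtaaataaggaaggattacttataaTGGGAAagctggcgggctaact
Foxa3, chr7:19023540-19023789: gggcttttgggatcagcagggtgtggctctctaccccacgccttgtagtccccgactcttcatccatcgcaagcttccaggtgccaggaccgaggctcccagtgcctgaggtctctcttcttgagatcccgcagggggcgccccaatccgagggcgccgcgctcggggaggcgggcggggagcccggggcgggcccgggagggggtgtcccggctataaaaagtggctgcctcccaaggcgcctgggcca
Both strands were searched, also for CACNAG, an N-box of the kind bound by Hes proteins, which is left in lower case. CAGCTG was found in the Dll1 window shown, its first base at position -132 from the start, and in the Neurog3 window at -165, but not at the other Dll1 start. TGGGAA was found only in the Spdef window among these 11, at -22. CACNAG occurred once each in the Dll4, Notch1 and Notch2 windows, and the Foxa3 window held none of the 3 motifs. Of 32851 windows of 250 bases before RefSeq starts, 13.0% hold CAGCTG, 21.6% TGGGAA and 36.7% CACNAG, so none of the motifs is rare, and a match in a window does not show a bound site.

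Both receptors were high in crypt progenitors and low in enterocyte-like cells, and Notch1 was also high in the tuft-like cluster. Notch1 stood at 33.2, 21.1 and 29.6 CPM in ISC-like cells, at 32.8, 17.9 and 34.6 CPM in TA-like cells and at 25.5, 27.9 and 33.3 CPM in the tuft-like cluster, which rests on 17, 16 and 22 UMIs. These 3 classes overlapped in their ranges over the libraries, and Notch1 was lowest in enterocyte-like cells at 1.74, 1.67 and 1.82 CPM. Notch2 was highest in the progenitors too, with 6.99, 9.48 and 7.76 CPM in ISC-like cells, 10.2, 8.55 and 6.68 CPM in TA-like cells and only 7, 3 and 5 UMIs (0.259, 0.139 and 0.222 CPM) in enterocyte-like cells. In goblet-like cells Notch1 was at 3.27, 1.41 and 4.08 CPM and Notch2 at 1.09, 0.564 and 1.90 CPM, all below each ISC- and TA-like value of the same gene. Because classes are clusters of the same cells, levels across them are a description and carry no test.

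**Figure D1:**
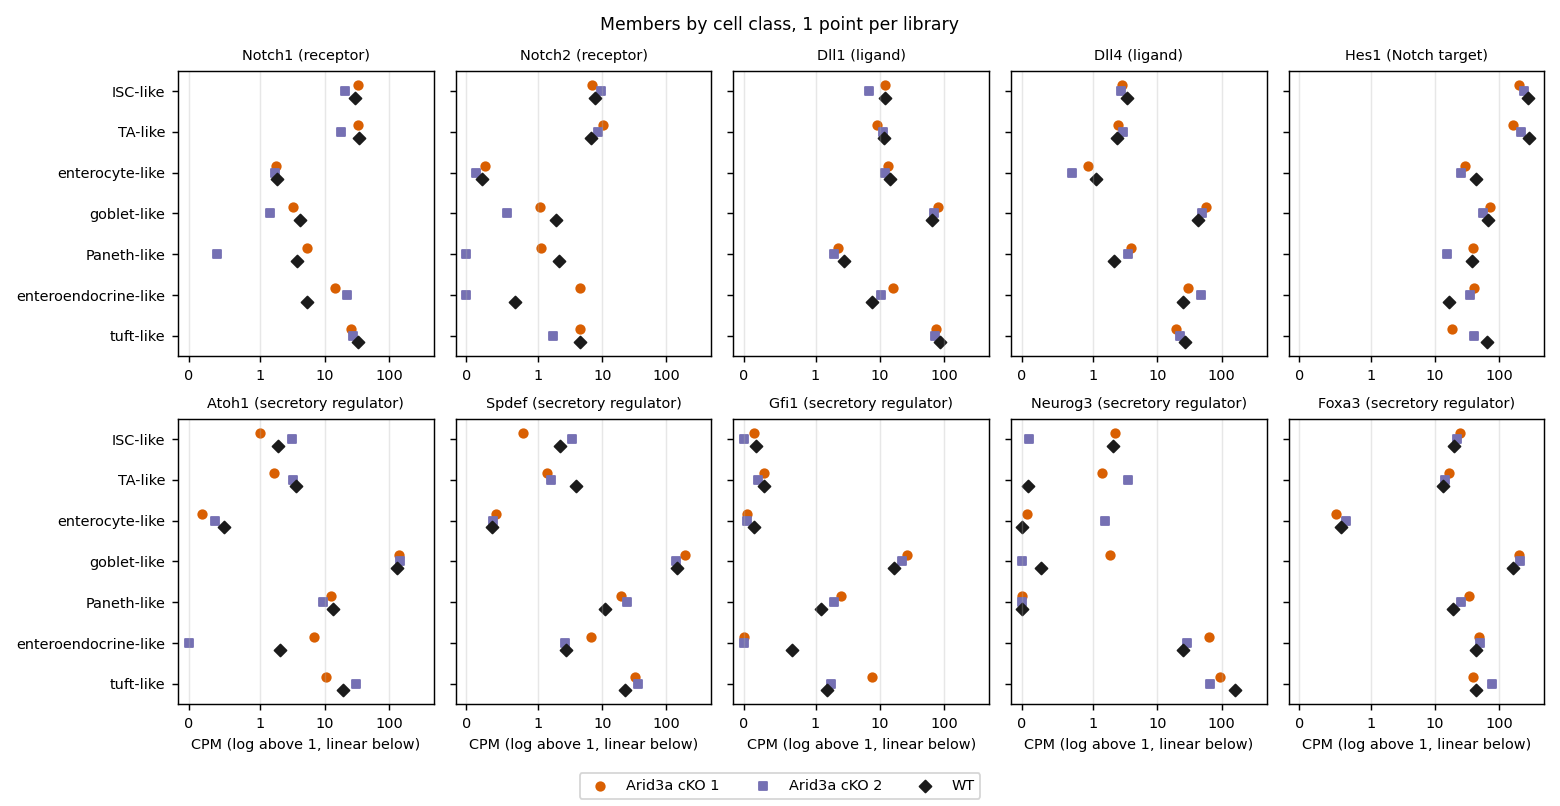
Level of each of the 10 genes (CPM, symlog axis, logarithmic above 1 and linear below) in the 7 named classes, with a point for each of the 3 libraries. Hes1 is highest in ISC- and TA-like cells (163 to 292 CPM), whereas Atoh1 (133 to 151 CPM), Spdef, Gfi1 and Foxa3 are highest in goblet-like cells in all 3 libraries.

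The ligands were highest in secretory classes. Dll1, which encodes the main ligand of secretory progenitors, was at 81.0, 68.5 and 63.9 CPM in goblet-like cells (223, 243 and 235 UMIs) and at 73.4, 73.2 and 87.7 CPM in the tuft-like cluster, and these ranges overlapped. In ISC-like cells it was at 11.8, 6.90 and 12.2 CPM, in TA-like cells at 8.88, 11.3 and 11.6 CPM and in Paneth-like cells at 2.22, 1.97 and 2.76 CPM. Dll1 was not restricted to crypt progenitors and secretory cells, since enterocyte-like cells held 13.2, 12.04 and 14.5 CPM (357, 259 and 327 UMIs), a range that overlapped those of ISC- and enteroendocrine-like cells and lay above that of TA-like cells. Dll4, a ligand that also signals to stem cells in the crypt, was at 57.0, 48.5 and 43.3 CPM in goblet-like cells, 29.3, 48.3 and 25.01 CPM in enteroendocrine-like cells and 19.5, 22.7 and 27.2 CPM in the tuft-like cluster. Each of these 3 ranges overlapped the next, that of the tuft-like cluster including cells with few tuft markers (described further on). Below a gap, Dll4 stood at 2.14 to 3.89 CPM in Paneth-like cells, 2.68 to 3.30 CPM in ISC-like cells and 0.697 to 1.11 CPM in enterocyte-like cells. Paneth-like cells were the deepest class, with medians of 119501, 177412 and 127390 UMIs a cell. By share, 17.2% to 32.4% of Paneth-like cells of a library had a Dll4 UMI, against 5.72% to 7.25% of ISC-like cells. The part of depth in these shares was not tested.

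Hes1 was highest in ISC-like cells (203, 239 and 276 CPM) and TA-like cells (163, 216 and 292 CPM), whose ranges overlapped. The 2 unnamed clusters came next, cluster 2 with 156, 125 and 160 CPM and cluster 11 with 75.5, 113 and 163 CPM. Goblet-like cells held 70.5, 54.7 and 65.9 CPM, and enterocyte-like cells 29.4, 25.5 and 42.5 CPM. Paneth-like cells held 38.6, 15.3 and 37.4 CPM, the value of Arid3a cKO 2 resting on 39 UMIs. In enteroendocrine-like cells Hes1 was at 40.6, 35.3 and 16.2 CPM and in the tuft-like cluster at 18.0, 40.1 and 65.0 CPM, on 36, 27 and 24 UMIs and 12, 23 and 43 UMIs. 

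Atoh1 was highest in goblet-like cells at 145, 151 and 133 CPM, and no other class overlapped that range. The tuft-like cluster (10.5, 31.4 and 19.6 CPM) and Paneth-like cells (12.5, 9.44 and 13.5 CPM) followed. In the cells of the tuft-like cluster with at least 3 of 13 tuft markers (described further on), Atoh1 lay below each Paneth-like value. By share, 58.6% to 70.6% of the deeper Paneth-like cells of a library had an Atoh1 UMI, against 8.16% to 14.3% of the tuft-like cluster. ISC-like cells held 0.999, 3.16 and 1.90 CPM and TA-like cells 1.65, 3.23 and 3.57 CPM. Enterocyte-like cells, which should lack the gene, held 0.185, 0.372 and 0.489 CPM on 5, 8 and 11 UMIs. An Atoh1 UMI was seen in 2.27% to 3.26% of ISC-like and 3.78% to 5.80% of TA-like cells of a library, against 0.579% to 0.917% of enterocyte-like cells. Median depths were 27251 to 33370.5 UMIs in ISC-like, 38844 to 48020 in TA-like and 30399 to 34873 in enterocyte-like cells. Cells with at least 10000 UMIs were then thinned to 10000, and 369 shallower kept cells were left out. The shares with an Atoh1 UMI were then 0.276% to 1.84% of ISC-like, 1.28% to 3.64% of TA-like and 0% to 0.410% of enterocyte-like cells. The ranges of ISC- and enterocyte-like cells thus overlapped.

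The goblet regulators followed Atoh1. Spdef, an ETS factor of goblet and Paneth cell maturation, was at 192, 141 and 144 CPM in goblet-like cells, 32.9, 36.6 and 22.7 CPM in the tuft-like cluster, 19.5, 23.99 and 11.03 CPM in Paneth-like cells and 0.356 to 0.407 CPM in enterocyte-like cells. Gfi1, a zinc-finger repressor, was at 26.2, 22.3 and 16.3 CPM in goblet-like cells (72, 79 and 60 UMIs of 93, 88 and 75 in all cells) and at 2.501, 1.97 and 1.23 CPM in Paneth-like cells. Foxa3, a forkhead factor, was at 201, 206 and 161 CPM in goblet-like cells, and no other class reached that range. Unlike Spdef and Gfi1, Foxa3 was also common in crypt progenitors, with 23.97, 21.6 and 19.8 CPM in ISC-like and 16.5, 14.4 and 13.4 CPM in TA-like cells. Enteroendocrine-like cells held Foxa3 at 48.5, 49.6 and 43.9 CPM, Paneth-like cells at 18.7 to 34.2 CPM and the tuft-like cluster at 38.9 to 76.7 CPM. Foxa3 fell to 0.519, 0.651 and 0.578 CPM in enterocyte-like cells. For 5 genes, Dll4, Atoh1, Spdef, Gfi1 and Foxa3, goblet-like cells were thus the class with the highest mean level.

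Neurog3 was confined to few cells. A UMI was seen in 39 of the 5594 kept cells (0.697%), and 25 cells with at least 3 UMIs, a limit chosen after the values were seen, held 455 of the 474 UMIs (96.0%). These 25 cells had a median of 18 UMIs (3 to 53), and cells outside the limit had at most 2. They fell into the tuft-like cluster (9 cells), enteroendocrine-like (7), ISC-like (4), TA-like (3), goblet-like (1) and enterocyte-like cells (1). Hes1 was at 0 UMIs in 12 of the 25, while 16 had a Dll1 UMI and 3 an Atoh1 UMI. Of all kept cells of a library, 63.7% to 68.8% had a Hes1, 27.5% to 29.0% a Dll1 and 6.89% to 9.48% an Atoh1 UMI. For Hes1 the shares were 14.0% to 19.0% in enteroendocrine-like cells and 22.2% to 32.1% in the tuft-like cluster. The 4 ISC-like and 3 TA-like cells of the 25 all had a Hes1 UMI.

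**Figure D2:**
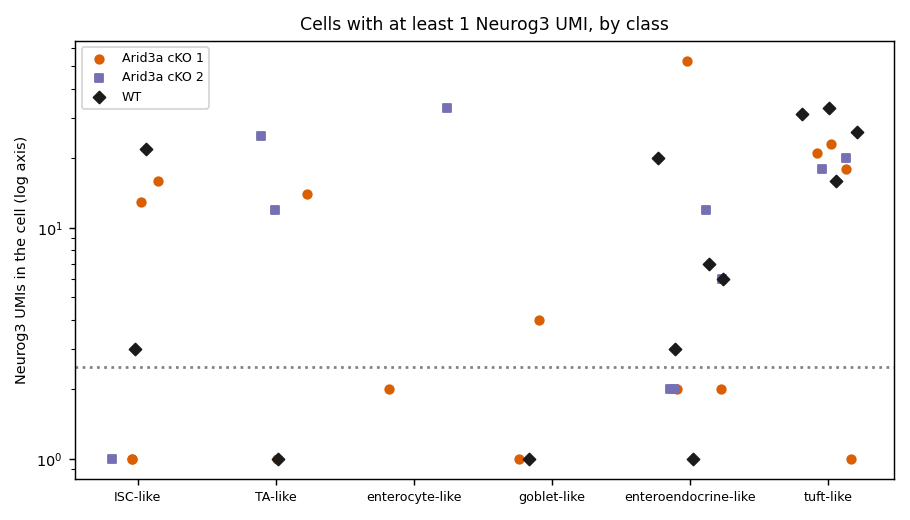
Neurog3 UMIs (log axis) of each of the 39 cells with at least 1, by class, with colour and shape for the library and horizontal scatter added for display. The dotted line separates the 25 cells with at least 3 UMIs, of which 9 lie in the tuft-like cluster and 7 among enteroendocrine-like cells.

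By level, Neurog3 was highest in the tuft-like cluster, at 94.3, 66.2 and 160 CPM, ahead of enteroendocrine-like cells at 64.3, 28.7 and 25.01 CPM. The tuft-like cluster was therefore split by its own markers, which was decided after these values were seen. Cells with UMIs of at least 3 of 13 tuft markers (40, 21 and 44 cells) held 1, 0 and 0 Neurog3 UMIs, and Trpm5, the tuft cell cation channel, at 966, 505 and 864 CPM. The remaining 5, 7 and 5 cells, of which 11 had no tuft marker and 6 had 1, held 62, 38 and 106 Neurog3 UMIs (468, 247 and 966 CPM) and no Trpm5 UMI. In these 17 cells Dll1 was at 219, 201 and 337 CPM, against 37.4, 26.2 and 38.0 CPM in the cells with at least 3. Insm1, a zinc-finger factor of endocrine precursors, was at 581, 273 and 593 CPM in them and at 0 UMIs in the cells with at least 3. The Neurog3 UMIs of the tuft-like cluster thus lay, but for 1, in cells with at most 1 tuft marker. In the cells with at least 3 tuft markers Notch1 stayed at 24.3, 23.8 and 27.2 CPM and Hes1 at 13.1, 33.3 and 63.4 CPM. Atoh1 was at 7.47, 4.76 and 5.44 CPM in them, on 4, 2 and 3 UMIs, below each Paneth-like value. Dll4 was at 7.47, 9.53 and 12.7 CPM, below each enteroendocrine-like value, and Spdef at 24.3, 16.7 and 19.9 CPM.

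Whether the pathway genes move together was asked within the ISC- and TA-like classes. In each library, cells with at least 1 Atoh1 UMI were compared with those without. Whether the Atoh1-positive cells had already entered the goblet programme, whose markers are given below, was not tested. There were 19, 21 and 23 Atoh1-positive and 659, 462 and 594 Atoh1-negative cells. UMIs were summed over each set, and the 3 libraries entered as pairs in edgeR's quasi-likelihood test. Benjamini-Hochberg adjustment was over 14611 genes, with Atoh1 left out because it chose the cells. With 3 pairs, the p-values of this split rest mostly on a spread that edgeR pools over genes. In Atoh1-positive cells 4 genes were higher and 1 was lower, 5 of 8 tested (background over all genes 4.91%, with 2.09% higher and 2.82% lower).

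Both ligands were higher. Dll1 rose from 8.92 to 51.0 CPM, from 5.90 to 64.4 CPM and from 8.52 to 59.4 CPM in the 3 libraries, a log2 fold change of 2.83 (SE 0.166, edgeR adjusted p = 5.39e-62). Dll4 rose from 2.08 to 16.7 CPM, from 1.51 to 25.2 CPM and from 1.82 to 17.4 CPM (log2 fold change 3.36, SE 0.305, edgeR adjusted p = 1.36e-25). For either ligand, the lowest Atoh1-positive library lay above the highest Atoh1-negative one.

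The goblet regulators Spdef and Foxa3 were higher as well. Spdef rose from 0.292 to 19.8 CPM, from 0.555 to 35.7 CPM and from 1.07 to 30.3 CPM (log2 fold change 5.38, SE 0.327, edgeR adjusted p = 7.93e-58). Foxa3 rose from 19.7 to 45.8 CPM, from 14.8 to 73.1 CPM and from 14.7 to 45.2 CPM (log2 fold change 1.66, SE 0.146, edgeR adjusted p = 1.52e-27). The Atoh1-positive and Atoh1-negative libraries did not overlap for either gene. Gfi1 had too few UMIs to be tested. Its 12 UMIs in ISC- and TA-like cells (5, 2 and 5) all lay in 11 cells that were positive for Atoh1 and for Dll1, although just 40 of the 1778 cells were positive for both.

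Hes1 remained high in Atoh1-positive cells. It stood at 176 against 186 CPM in Arid3a cKO 1, at 185 against 230 CPM in Arid3a cKO 2 and at 259 against 285 CPM in WT. In each library the Atoh1-positive value of these sums was the lower, and the ranges over the libraries overlapped. Medians over single cells were 137 against 145, 135 against 183 and 250 against 242 CPM, so that WT went the other way. The fitted difference of the sums was a log2 fold change of -0.27 (SE 0.0871, edgeR adjusted p = 0.0473), and this call was lost under 9 of 13 alternatives. Of the Atoh1-positive cells, 1 of 19, 3 of 21 and 0 of 23 (5.26%, 14.3% and 0%) had no Hes1 UMI. Among the Atoh1-negative cells, which were less deep, these shares were 13.4%, 7.79% and 8.75%. Notch1 (28.1 against 33.3, 24.4 against 19.2 and 56.8 against 30.2 CPM, log2 fold change 0.37, SE 0.146, edgeR adjusted p = 0.147) did not pass the test and moved in unlike directions. Notch2 had a log2 fold change of 0.02 (SE 0.290) and an edgeR adjusted p of 0.99. Neurog3 (log2 fold change 1.29, SE 0.563, edgeR adjusted p = 0.218) did not pass either, its 14 UMIs in Atoh1-positive cells all being from 1 cell of Arid3a cKO 1.

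**Figure D3:**
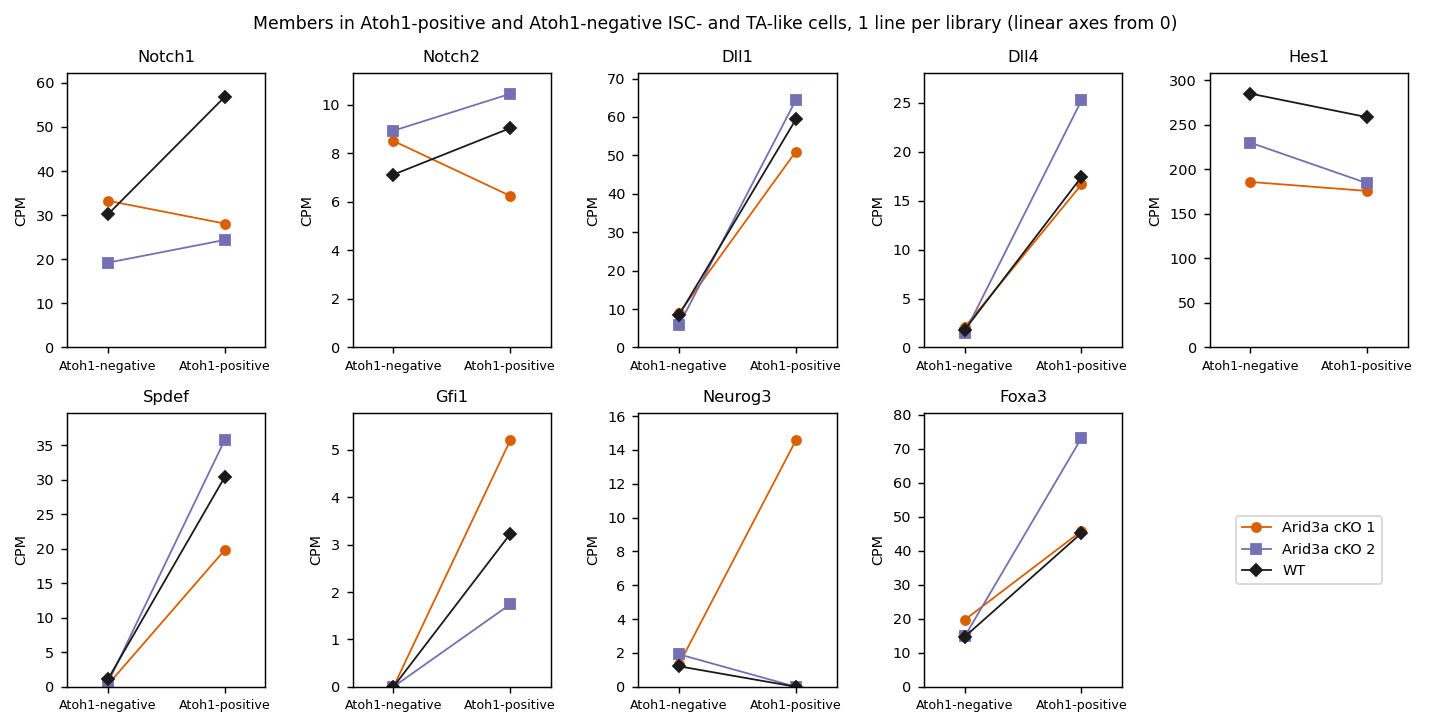
Level (CPM, linear axes from 0) of 9 genes in Atoh1-negative and Atoh1-positive ISC- and TA-like cells, with a line for each of the 3 libraries. Dll1, Dll4, Spdef and Foxa3 rise in all 3 libraries, Hes1 stays between 176 and 285 CPM, and Neurog3 is above 0 in Atoh1-positive cells of Arid3a cKO 1 alone.

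The Atoh1-positive cells were deeper, with medians of 45162, 50657 and 55839 UMIs against 32251, 39269 and 31579.5. They also held the 10 goblet markers at 11070, 12436 and 7813 CPM against 377, 529 and 703 CPM, all 10 being detected in both sets of each library. The 15 enteroendocrine markers stood at 38.5, 94.9 and 49.7 CPM against 345, 47.8 and 502 CPM, and the 10 ISC markers at 1629, 1410 and 1533 CPM against 1579, 1405 and 1453 CPM. The 20 enterocyte markers were higher in Atoh1-positive cells of both cKO libraries, at 6252 against 3075 and 4846 against 3324 CPM, and lower in those of WT, at 2034 against 3829 CPM. The part of depth and of these transcripts in the differences was not tested, and without likely doublets Dll1, Dll4, Spdef and Foxa3 were still called. With each cell of at least 10000 UMIs thinned to 10000 and shallower cells left out, 8, 8 and 10 Atoh1-positive cells remained, and Dll1 and Foxa3 were called. Dll4 then had a log2 fold change of 3.51 (SE 1.07, edgeR adjusted p = 0.0892), and Spdef had too few UMIs to be tested.

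Among 44 other Notch pathway genes, 37 were tested and 2 (5.41%) were higher, a share near the background of 4.91%, with a median log2 fold change of 0.02 against -0.03 over all genes. These were Cbfa2t3, a corepressor of the ETO family (log2 fold change 4.52, SE 0.305, edgeR adjusted p = 7.39e-47), and Lfng, a glycosyltransferase that modifies Notch receptors (1.31, SE 0.283, edgeR adjusted p = 0.000233). None was lower. Among 26 other secretory regulators, 23 were tested, 7 (30.4%) were higher and none was lower, with a median of 0.35. The largest were Creb3l1 and Creb3l4, transcription factors anchored in the endoplasmic reticulum (log2 fold changes 3.50 and 2.63), Insm1 (1.99), the forkhead factor Foxa2 (1.64) and Klf4, a zinc-finger factor of goblet cells (0.95). Insm1 rose in Arid3a cKO 1 from 2.501 to 27.1 CPM (26 UMIs in Atoh1-positive cells), but stood at 0 and 4 UMIs in the Atoh1-positive cells of the other two libraries, and without Arid3a cKO 1 its log2 fold change was -0.17 and it was not called.

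The same ISC- and TA-like classes were also split by the ligand. ISC- and TA-like cells with a Dll1 UMI (149, 100 and 146) were compared with those without (529, 383 and 471), with Dll1 left out of the test. In Dll1-positive cells 5 of 8 genes tested were higher and none was lower (background 2.78%, with 1.18% higher and 1.59% lower). DESeq2 gave an adjusted p for only 1 of the 8 and called 0.

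Atoh1 rose from 0.275 to 3.99 CPM, from 1.14 to 9.51 CPM and from 0.566 to 7.42 CPM (log2 fold change 3.34, SE 0.272, edgeR adjusted p = 1.61e-05). Spdef rose from 0.275 to 3.10 CPM, from 0.822 to 7.57 CPM and from 0.881 to 7.84 CPM (log2 fold change 3.15, SE 0.269, edgeR adjusted p = 2.34e-05). For these, as for Dll4, the Dll1-positive and Dll1-negative libraries did not overlap. Dll4 stood at 5.17, 5.82 and 5.88 CPM against 1.71, 1.83 and 1.51 CPM (log2 fold change 1.67, SE 0.226, edgeR adjusted p = 0.00149). Foxa3 was less changed, at 25.1, 26.8 and 20.3 CPM against 19.0, 15.2 and 15.2 CPM (log2 fold change 0.47, SE 0.0946, edgeR adjusted p = 0.0215).

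Neurog3, unlike in the Atoh1 split, was higher in Dll1-positive cells of every library, at 4.13, 7.38 and 3.22 CPM (28, 38 and 23 UMIs) against 0.99, 0 and 0.189 CPM (18, 0 and 3 UMIs), with a log2 fold change of 3.46 (SE 0.551, edgeR adjusted p = 0.00515). These UMIs lie in few cells. Among Dll1-positive cells, single cells held 14 and 13 of them in Arid3a cKO 1, 25 and 12 in Arid3a cKO 2 and 22 in WT. Of the 18 UMIs in Dll1-negative cells of Arid3a cKO 1, 16 lay in 1 cell. Hes1 did not pass the test, at 197, 197 and 291 CPM against 181, 237 and 280 CPM (log2 fold change -0.10, SE 0.0639, edgeR adjusted p = 0.479). Notch1 was higher in Dll1-positive cells of each library, at 41.3, 21.6 and 36.8 CPM against 29.99, 18.8 and 29.8 CPM, without passing the test (log2 fold change 0.27, SE 0.0767, edgeR adjusted p = 0.0732). Notch2 had a log2 fold change of -0.30 (SE 0.142, edgeR adjusted p = 0.293).

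**Figure D4:**
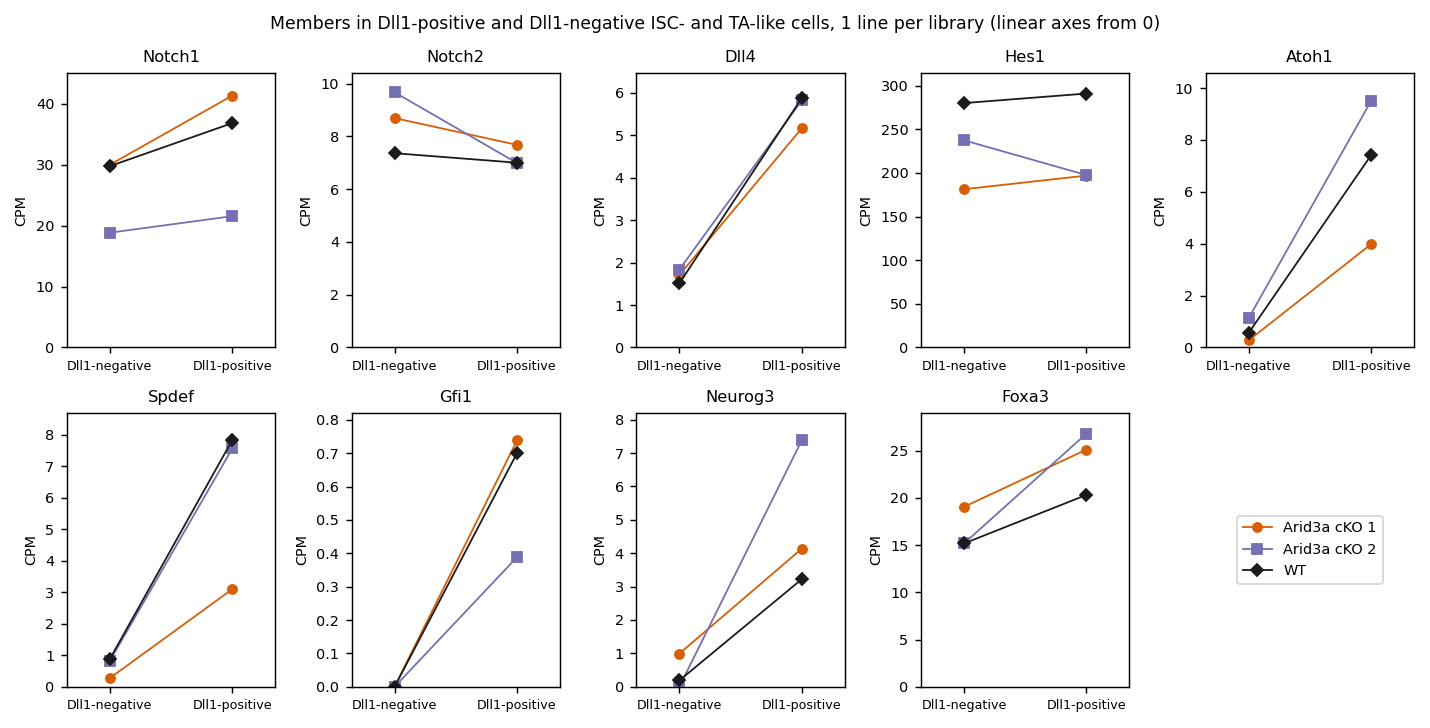
Level (CPM, linear axes from 0) of 9 genes in Dll1-negative and Dll1-positive ISC- and TA-like cells, with a line for each of the 3 libraries. Atoh1, Spdef, Dll4, Neurog3 and Foxa3 rise in all 3 libraries, whereas Hes1 rises in Arid3a cKO 1 and WT and falls in Arid3a cKO 2.

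Goblet markers were again higher in the positive cells, at 2009, 2492 and 2313 CPM against 334, 754 and 672 CPM, and median depths were 37307, 48051.5 and 40004 UMIs against 31359, 38205 and 30387. Enterocyte markers were higher too, at 3675, 4399 and 4817 CPM against 3020, 3084 and 3209 CPM, while the 11 Paneth markers stood at 971, 1788 and 530.02 CPM against 550.3, 470.4 and 1454 CPM. Their part was not tested. Without the pairing by library 3 genes were called, with Foxa3 at a log2 fold change of 0.47 (edgeR adjusted p = 0.533) and Neurog3 at 3.44 (edgeR adjusted p = 0.141). After thinning only Atoh1 was called, with Dll4 at 2.10 (edgeR adjusted p = 0.224) and Foxa3 at 0.89 (edgeR adjusted p = 0.0741), and Spdef and Neurog3 had too few UMIs to be tested. Of the other Notch pathway genes, 3 of 37 tested (8.11%) were higher and none lower (median log2 fold change 0.09 against 0.01 over all genes), namely Cbfa2t3 (2.995), Lfng (0.78) and Maml3, a Mastermind coactivator (0.46). Of the other secretory regulators, 7 of 23 were higher and none lower (median 0.43), among them Insm1 (2.02), Creb3l1 (1.72), Creb3l4 (1.16), Foxa2 (0.67) and Klf4 (0.45). Dll1- and Atoh1-positive cells overlap, so the splits are not independent. The 40 cells positive for both are 63.5% of the 63 Atoh1-positive and 10.1% of the 395 Dll1-positive cells.

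The difference between Atoh1-positive and Atoh1-negative cells was then compared between genotypes by an interaction term. It was called for 0 of 8 genes (background 0.424%, with 0.39% higher and 0.0342% lower), with 2 at an unadjusted p under 0.05 (5.45% of all genes) and 0 by DESeq2. These 2 were Notch1 (difference of log2 fold changes, cKO minus WT, -0.83, SE 0.289, edgeR adjusted p = 0.361) and Neurog3, which had no UMI in Atoh1-positive WT cells. The enterocyte markers, higher in Atoh1-positive cells of both cKO libraries and lower in those of WT as given above, moved with the same contrast, and their part was not tested.

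The effect of Arid3a loss was tested on UMI sums per library, both cKO libraries against the WT library. With 1 residual degree of freedom, the WT library is assumed to vary as the cKO libraries do. WT also had the smallest share of barcodes kept, and the part of this in the genotype differences was not tested. Over all kept cells, 0 of 10 genes were called (background 0.591%, with 0.201% higher and 0.39% lower), 1 of them at an unadjusted p under 0.05 (10.9% of all genes) and 0 by DESeq2. WT lay above both cKO libraries for 4 genes, below both for 2 and between them for 4. Hes1 was at 106, 114 and 147 CPM (log2 fold change, cKO over WT, -0.38, SE 0.0945, edgeR adjusted p = 0.182), and Notch1 at 14.0, 9.06 and 14.4 CPM, with a 1.55-fold difference between the cKO libraries. Atoh1 stood at 7.01, 11.4 and 10.0 CPM, with WT between the cKO libraries. The median log2 fold change of the 26 other secretory regulators was -0.41 against -0.00389 over all genes, 23 of 26 being below 0 and 0 called by edgeR or DESeq2, with 12 at an unadjusted p under 0.05. The summed immune markers were also highest in WT, and enteroendocrine-like cells were 2.16%, 2.71% and 4.50% of the kept cells. Their part was not tested.

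In ISC- and TA-like cells, 0 of 9 genes tested were called (background 1.56%, with 0.643% higher and 0.917% lower), with 2 at an unadjusted p under 0.05 (8.01% of all genes) and 0 by DESeq2. Hes1 was lower in both cKO libraries, at 186 and 228 CPM against 283 CPM in WT, but the cKO libraries themselves differed by 1.23-fold and the test was not passed (log2 fold change -0.45, SE 0.134, edgeR adjusted p = 0.0524). Spdef was at 1.04, 2.48 and 3.04 CPM (log2 fold change -0.80, SE 0.332, edgeR adjusted p = 0.365) and Atoh1 at 1.28, 3.19 and 2.69 CPM (-0.28, SE 0.326, edgeR adjusted p = 0.942). Both were lowest in Arid3a cKO 1. Notch1, at 33.1, 19.5 and 32.0 CPM, was lower in Arid3a cKO 2 than in either other library (log2 fold change -0.27, SE 0.150, edgeR adjusted p = 0.689). Of the other Notch pathway genes 0 of 37 were called, with 1 at an unadjusted p under 0.05 and 0 by DESeq2. Of the other secretory regulators 1 of 23 was called, Insm1, which was higher at 3.45 and 2.15 CPM (86 and 45 UMIs) against 1.17 CPM (27 UMIs) in WT (log2 fold change 1.27, SE 0.370, edgeR adjusted p = 0.0409). It was not called by DESeq2, with library totals in place of normalization factors, or with finer clusters.

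In enterocyte-like cells 1 of 8 genes tested was called, Hes1 (background 0.901%, with 0.334% higher and 0.567% lower). It stood at 29.4, 25.5 and 42.5 CPM on 794, 548 and 955 UMIs, lowest in both cKO libraries, with a log2 fold change of -0.64 (SE 0.109, edgeR adjusted p = 0.0304). WT exceeded the cKO libraries by 1.44- and 1.67-fold, while these differed by 1.15-fold. DESeq2 gave a log2 fold change of -0.64 with an adjusted p of 0.152 and did not call it. WT was also highest in each of the 4 enterocyte-like clusters, with 17.8, 19.3 and 33.9 CPM in cluster 1, 49.3, 43.2 and 60.3 CPM in cluster 3, 15.96, 14.5 and 31.6 CPM in cluster 5 and 17.2, 14.9 and 33.7 CPM in cluster 10. Cluster 3, which had the highest Hes1 level, made up 35.6%, 27.8% and 32.2% of the enterocyte-like cells, and the part of the cluster shares in the class difference was not tested.

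**Figure D5:**
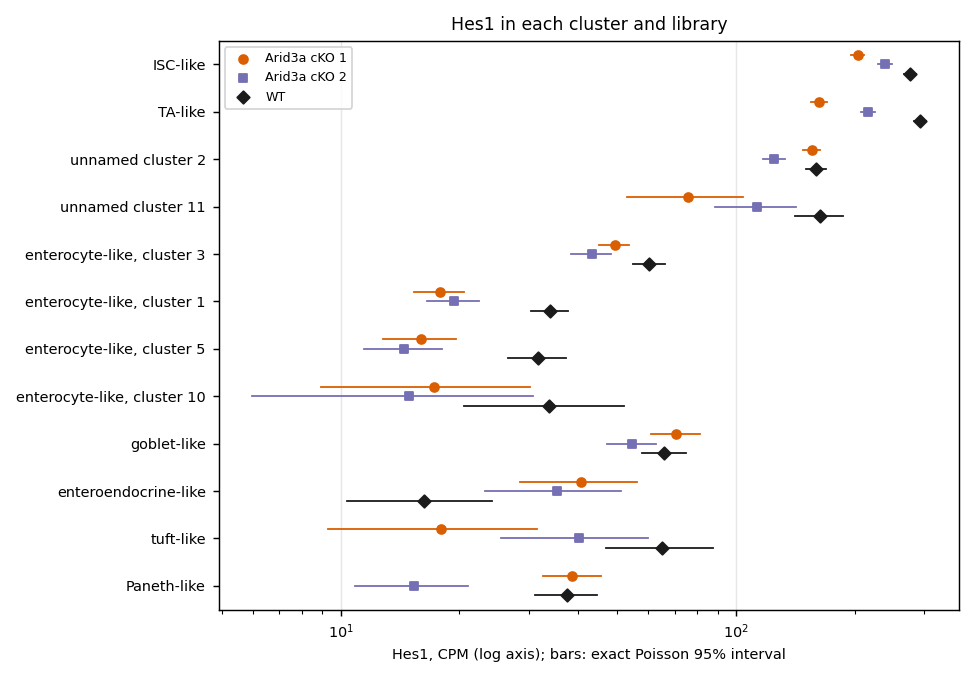
Hes1 level (CPM, log axis) in each cluster and library, with bars for exact Poisson 95% intervals that cover counting error only. WT lies above both cKO libraries in ISC- and TA-like cells and in all 4 enterocyte-like clusters, and below both in enteroendocrine-like cells, on 24 to 36 UMIs a library.

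The other 7 genes tested in enterocyte-like cells were not called. Dll1, the ligand with most UMIs there, was at 13.2, 12.04 and 14.5 CPM (log2 fold change -0.22, SE 0.142, edgeR adjusted p = 0.566). Neurog3 had 2, 33 and 0 UMIs, the 33 being from a single cell, so its fitted change rests on that cell. Notch2 and Gfi1 had fewer than 20 UMIs and were not tested. Tle3, a Groucho-family corepressor recruited by Hes proteins, was the 1 gene of 30 tested in the Notch pathway list that was called, lower at 10.7 and 11.4 CPM against 19.1 CPM in WT (log2 fold change -0.80, SE 0.142, edgeR adjusted p = 0.0387). DESeq2 did not call it.

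In the secretory classes summed (goblet-, Paneth-, enteroendocrine- and tuft-like), 0 of 10 genes were called (background 0.183%, with 0.0457% higher and 0.137% lower), with 3 at an unadjusted p under 0.05 (7.84% of all genes) and 0 by DESeq2. These 3 were Gfi1 (10.9, 11.4 and 7.27 CPM, log2 fold change 0.71, SE 0.242, edgeR adjusted p = 0.472), Spdef (79.3, 78.5 and 64.2 CPM, 0.39, SE 0.164, edgeR adjusted p = 0.604) and Foxa3 (94.2, 118 and 82.3 CPM, 0.46, SE 0.194, edgeR adjusted p = 0.612). Each was higher in both cKO libraries than in WT. The mix of classes moved with them, goblet-like cells being 117, 115 and 132 and enteroendocrine-like cells 46, 42 and 86. Within goblet-like cells alone, 0 of 8 genes were called (background 1.47%, with 0.731% higher and 0.74% lower), with 1 at an unadjusted p under 0.05 (9.58% of all genes) and 0 by DESeq2. Gfi1 was at 26.2, 22.3 and 16.3 CPM there (log2 fold change 0.56, SE 0.253, edgeR adjusted p = 0.42), Atoh1 at 145, 151 and 133 CPM (0.15, SE 0.178, edgeR adjusted p = 0.891) and Hes1 at 70.5, 54.7 and 65.9 CPM (-0.09, SE 0.170, edgeR adjusted p = 0.946). None of the 11 other secretory regulators tested in goblet-like cells was called, 0 of them at an unadjusted p under 0.05 and 0 by DESeq2.

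The genes most like each of the 10 were sought over 21 profiles, 7 named classes in 3 libraries, by Pearson's r of log2(CPM + 5) among 11951 candidate genes. The values are a description, since the profiles share libraries and clusters. Hes1 was most like Dscc1 (r = 0.94) and Cdc45 (r = 0.94), genes of DNA replication, with AU020206 between them. Notch1 was most like Cttnbp2, Kcnq1 and Mcc (r = 0.97, 0.97 and 0.96), and Notch2 like Shmt2, Ddx20 and Chaf1b (0.94, 0.93 and 0.93). Dll1 was nearest to Nectin1 (0.95), Rassf6 (0.94) and Gngt2 (0.92), and Dll4 to Rasa4 (0.97), Hepacam2 (0.96) and Srgap1 (0.96). Atoh1 and Spdef shared the neighbour Gm44985 (0.97 and 0.96), Atoh1 being nearest to Sytl2 (0.97) and Spdef to Rap1gapos (0.97), followed by Myof (0.96) for Atoh1 and Ern2 (0.96) for Spdef. Foxa3 was nearest to Wars (0.96), Txndc5 (0.96) and Smim6 (0.95), and Gfi1 to Rasd2 (0.98), 2210011C24Rik (0.97) and Smim5 (0.97). Neurog3 was nearest to Hap1 (0.98), Ildr1 (0.98) and Tuba1a (0.97).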

How the data were processed

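The deposited files held UMI counts per gene and cell barcode, which the authors made with Cell Ranger (5.0.0, per the file headers) for 3 libraries. The mouse genome build of the counting was not given in the sources used here. Counts were not normalized before deposit. Cells with at least 1000 genes and at most 15% mitochondrial UMIs were kept (5594 of 25554 barcodes), and 369 of them had too few UMIs for thinning to 10000.

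Libraries were integrated and clustered with Seurat 5.3.0 (CCA, 3000 features, 30 components, resolution 0.3), leaving out the 10 genes and both gene lists. Clusters were named from marker lists, by a rule set after the clusters were seen. No cell was removed as a doublet, and an alternative removed 262 cells marked by Scrublet or in the top 5% of its scores. The tuft-like cluster had low UMI counts.

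UMIs were summed per library and tested with edgeR 4.0.16 (quasi-likelihood, TMM, genes with at least 20 UMIs, Benjamini-Hochberg adjusted p under 0.05). Each SE was worked back from the test, as the size of the log2 fold change over the square root of F. It is not a standard error fitted by the model. The test was also run on simulated counts that had the same spread for every gene, so that run does not give the error rate in these libraries. Pairs of positive and negative cells used the library as a block, because both sets come from the same library. DESeq2 1.42.0, library totals, no filter, other clusters, no doublets, thinning and leaving out each library were alternatives. The series describes its replicates as biological, and the p-values cover no more than these 3 libraries. In genotype tests the single WT library adds no spread of its own. In the splits, the libraries add only the spread of 3 differences within libraries. In both, edgeR borrows its estimate of spread from other genes. The small p-values of the Atoh1 split rest mostly on this borrowed spread. Intervals are exact at 95% and cover counting error only. The study's own test over single cells was not used, since cells are not replicates.

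Genes named from the lists were, per comparison, up to 5 called in each direction with the largest fold change. The 10 genes, the lists and the splits were chosen with earlier results of these data known.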

Additional observations from a re-analysis of the deposited data

Results flagged for a closer look

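For 5 genes, both Arid3a cKO libraries lay on one side of WT in a class and on the other side in another class, among classes with at least 20 UMIs of the gene in each library. The values are the mean log2 ratios of both cKO libraries to WT, and the difference was not tested in any of these cases. Dll1 was at 0.22 in goblet-like cells (0.34 in Arid3a cKO 1 and 0.10 in Arid3a cKO 2) among 5 classes compared. In ISC-like cells it was at -0.44 (-0.045 and -0.83 in the same order), so that Arid3a cKO 1 lay close to WT. Dll4 was at 0.59 in enteroendocrine-like cells (0.23 and 0.95) and -0.27 in ISC-like cells (-0.25 and -0.30), among 4 classes. Hes1 was at 1.22 in enteroendocrine-like cells, on 36, 27 and 24 UMIs, and -0.64 in TA-like cells, among 6 classes. Without likely doublets Hes1 in enteroendocrine-like cells was at 12.5, 37.7 and 10.4 CPM on 7, 27 and 13 UMIs, so that Arid3a cKO 1 lay close to WT. Atoh1 was at 0.16 in goblet-like (0.13 and 0.19) and -0.31 in Paneth-like cells (-0.11 and -0.51), among 2 classes. Neurog3 was at 0.78 in enteroendocrine-like cells (1.36 and 0.20) and -1.02 in the tuft-like cluster (-0.76 and -1.27), also among 2 classes. The Neurog3 values of the tuft-like cluster rest on the 17 cells with at most 1 tuft marker. Of the 57 Neurog3 UMIs of Arid3a cKO 1 in enteroendocrine-like cells 53 lay in 1 cell, and without likely doublets the class stood at 3.56, 30.7 and 29.5 CPM, with Arid3a cKO 1 below WT.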

How the results depend on the processing

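With 2 cKO libraries and 1 WT library, a genotype difference has 1 residual degree of freedom, and leaving out a library gives a value with no test. No paired analysis was possible because cKO and WT share only replicate number 1. Over all cells 1 of the 10 genes was called without the filter on low counts (Hes1), and in ISC- and TA-like cells 1 without integration (Spdef, log2 fold change -1.31). In enterocyte-like cells DESeq2 called 0, and 2 (Hes1 and Neurog3) were called without the filter and with finer clusters. Hes1 stayed lower there, between -0.91 and -0.57 over 8 alternatives, DESeq2 being the one that lost the call.

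In Atoh1-positive cells, thinning left 2 calls and leaving out each library in turn gave 4 to 6. In Dll1-positive cells DESeq2 called 0, thinning left 1 call, and leaving out each library gave 4 to 5. The fit without the library block called 4 genes in the Atoh1 split (Dll1, Dll4, Spdef and Foxa3) and 3 in the Dll1 split (Dll4, Atoh1 and Spdef).

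Directions turned for Insm1 in the Atoh1 split, at -0.13 without likely doublets, -0.17 without Arid3a cKO 1 (-0.17 to 2.75 as each library was left out), -7.34 with at least 2 Atoh1 UMIs, -5.36 after thinning and -0.31 over all kept cells, and for Lfng after thinning (-0.66). In the Dll1 split they turned for Creb3l4 after thinning (-0.66), Hes1 without Arid3a cKO 2 (0.027) and after thinning (0.12), and Insm1 over all kept cells (-0.10). The cause was not tested.

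Over all genes, calls ranged over the alternatives from 72 to 677 in all cells (100 as reported), 47 to 229 in ISC- and TA-like cells (228), 82 to 537 in enterocyte-like (116), 21 to 140 in secretory (24) and 14 to 159 in goblet-like cells (159). They ranged from 116 to 5977 in the Atoh1 split (718, and 171 without the block), 23 to 1964 in the Dll1 split (406, and 23 without the block) and 10 to 71 for the interaction (62). With library totals, the split of higher against lower calls moved from 306 and 412 to 457 and 175 in the Atoh1 split, from 173 and 233 to 354 and 46 in the Dll1 split, from 94 and 134 to 23 and 51 in ISC- and TA-like cells and from 79 and 80 to 9 and 22 in goblet-like cells. With DESeq2 it moved to 161 and 99 in the Atoh1 split, 25 and 268 in the Dll1 split, 58 and 61 over all cells (from 34 and 66) and 9 and 13 in secretory cells (from 6 and 18).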
